A study of Mus musculus with 33 samples.

Results

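Cardiomyocytes from mice of the PTGC line, named as in the sample titles, that lacked both Ptpmt1 and Gcn2 were compared with cardiomyocytes of that line's controls. The 6 libraries compared, 3 of double knockouts and 3 of controls, were chosen by those titles from 33 in the series, of which 27 have a column in the tables used here. The labels describe the double knockouts as a cardiomyocyte-specific knockout of Ptpmt1 together with a knockout of Gcn2, for which they name no cell type. The controls are labelled Control only, so whether they carry an unrecombined Ptpmt1 allele, a Cre transgene or a Gcn2 allele is not stated in the labels. The Cre driver, strain, age and sex of the animals are likewise not given. The molecule is given as nuclear RNA, and libraries were made with a kit that removes ribosomal RNA. The PTGC table holds neither a Ptpmt1 knockout with intact Gcn2 nor a Gcn2 knockout alone, so the comparison measures both losses together.

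Ptpmt1 is a phosphatase of the mitochondrial inner membrane that makes phosphatidylglycerol, the precursor of cardiolipin, a lipid on which the respiratory complexes depend. Gcn2, whose gene has the symbol Eif2ak4, is one of the kinases that phosphorylate eIF2, a translation initiation factor, on its alpha subunit. It is best known as the sensor of uncharged tRNA during amino acid shortage, whereas Hri (Eif2ak1) relays mitochondrial stress, Perk (Eif2ak3) senses unfolded proteins in the endoplasmic reticulum (ER), and Pkr (Eif2ak2) senses double-stranded RNA. Phosphorylated eIF2 lowers general translation and favours translation of Atf4, the transcription factor that induces genes of amino acid synthesis and import, tRNA charging and feedback control. This programme is the integrated stress response (ISR).

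The libraries held 10.8 to 13.0 M reads in genes, except double knockout 1 with 19.3 M, and 18312 to 19449 genes with reads. Control 3 had the lowest median correlation with the other libraries, 0.979 against up to 0.988. By Xist and genes of the Y chromosome, 2 controls and 2 double knockouts had a male pattern. Each library's title holds its own code, and the labels do not say whether these codes stand for separate animals or cultures. Each group held libraries with and without a male pattern, so its libraries did not all come from the same animal. The p-values measure the spread between these samples, part of which may be technical. Within the control group the counts of control 3 differed most from the other 2, the chi-square divided by its degrees of freedom being 28.8 and 43.0 for those pairs and 9.97 for controls 1 and 2.

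In the double knockouts, genes called higher outnumbered genes called lower, and many of the higher ones belonged to the ISR and to amino acid supply. Of 32245 genes in the table, 14128 reached a normalized count of 10 in at least 3 libraries and were tested. With an adjusted p under 0.05 as the call (limma on log2(value + 1), Benjamini-Hochberg), 105 genes or 0.743% were called. Of these, 99 were higher in the double knockouts, 0.701% of the genes tested, and 6 were lower, 0.0425%. A rise of more than 1 on the log2 scale was seen for 65 genes and of more than 2 for 24, while 2 genes fell by more than 1. The median log2 fold change of all genes tested was 0.0028. The 3 values of one group lay wholly above or below those of the other for each of the 105 called genes, and for 18% of the genes tested. Leaving out control 2 raised the calls to 536, 285 higher and 251 lower. Leaving out double knockout 1 or 3 lowered the calls to 67 (66 higher) and 57 (55 higher). DESeq2 on recovered reads called 136 higher and 43 lower.

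**Figure D1:**
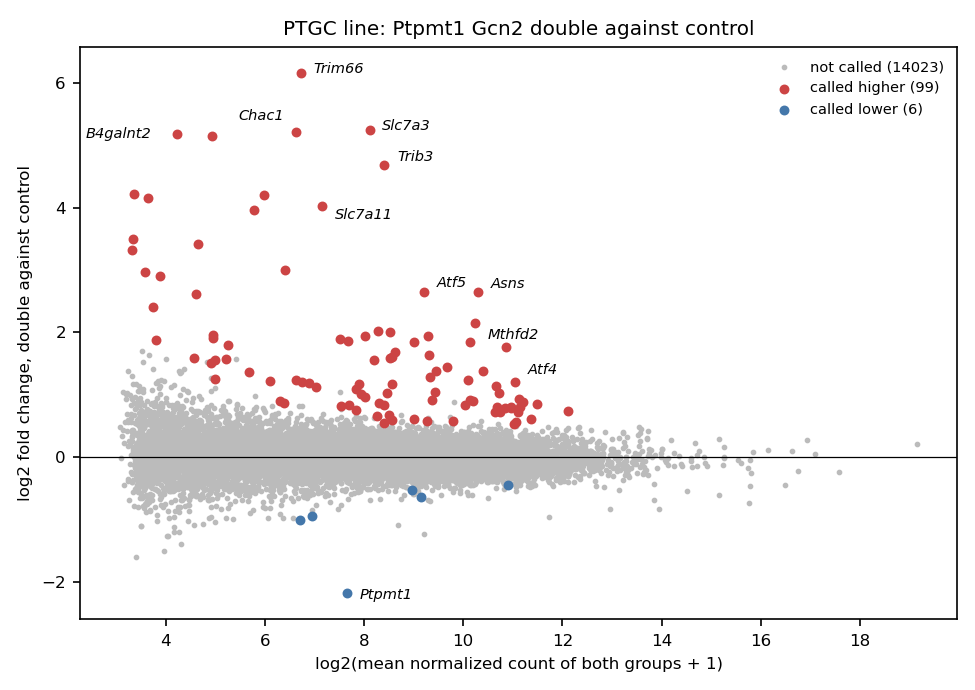
Log2 fold change of the Ptpmt1 Gcn2 double knockout against the control (vertical axis) by mean level over both groups (horizontal axis, log2 of the normalized count plus 1), with 1 point per tested gene. The 99 genes called higher (red) spread up to 6.16, whereas the 6 called lower (blue) lie below 0 and Ptpmt1 is the lowest of them at -2.18.

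One sequence feature ties many of these genes together in textbook accounts: the C/EBP-ATF response element, bound by dimers that hold Atf4, whose core was searched here as TGATGNAA. Both strands were searched in the 250 bases before each RefSeq gene start (GRCm38.p6 promoter table), and no other motif was searched. The core was present for 15 of the 81 called-higher genes that had a promoter entry, or 18.5%. It was present for 2.38% of all 10796 tested genes with an entry and for 3.45% of all 32851 windows in the table. Of the 31 called-higher genes with an entry in the lists of ISR regulators, amino acid enzymes, transporters and tRNA synthetases described below, 8 held it (25.8%). It was also present for 3 of 15 members of those lists that were tested and not called (20%), and for 0 of 4 genes called lower. Windows from the 8 are shown 5′ to 3′ on the gene's own strand because they are promoters of genes that rose. The capitals mark the core, which reads TTNCATCA where it lies on the opposite strand. A match describes the letters and says nothing of binding in these cells.
Asns, chr6:7693210-7693252, minus strand: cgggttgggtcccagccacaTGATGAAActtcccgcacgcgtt
Chac1, chr2:119351029-119351076, plus strand: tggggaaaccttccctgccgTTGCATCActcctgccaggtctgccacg
Slc7a11, chr3:50443652-50443699, minus strand: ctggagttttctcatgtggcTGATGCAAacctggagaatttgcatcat
Pycr1, chr11:120643824-120643871, minus strand: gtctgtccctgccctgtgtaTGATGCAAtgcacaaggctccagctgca
Aars, chr8:111033710-111033757, plus strand: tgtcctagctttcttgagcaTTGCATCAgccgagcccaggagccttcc
Gars, chr6:55037951-55037998, plus strand: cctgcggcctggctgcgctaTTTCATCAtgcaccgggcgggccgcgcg
Nupr1, chr7:126625553-126625600, minus strand: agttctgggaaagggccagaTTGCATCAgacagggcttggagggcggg
Vldlr, chr19:27216800-27216847, plus strand: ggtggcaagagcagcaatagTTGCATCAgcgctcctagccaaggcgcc

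The first base of the core lies 23 bases before the start in Asns, 193 in Chac1 and 66 in Slc7a11. Slc7a11, which encodes the cystine importer xCT, is the called-higher gene of those lists with a pair of cores, and the copy on the opposite strand is in lower case within the window shown. The values of these genes follow by role.

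The targeted genes came first, as a check of the labels. Ptpmt1 (ENSMUSG00000063235, chr2:90908716-90918258, minus strand) had normalized counts of 349, 288 and 348 in controls 1 to 3, and of 66.1, 74.5 and 73.0 in double knockouts 1 to 3. The groups lay far apart, and the double knockouts kept 21.7% of the control mean. The log2 fold change was -2.18 ± 0.14 (SE, n = 3 and 3), with limma's adjusted p = 3.9e-06. Exons of Ptpmt1 overlap those of Kbtbd4 and Gm17661 on the opposite strand, and the strand setting of the counting is not given in the sources used here. Kbtbd4 itself had a log2 fold change of -0.14 ± 0.11 with adjusted p = 0.593. In bulk samples, fewer cells of a type and less RNA per cell cannot be told apart.

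Eif2ak4, the gene of Gcn2 (chr2:118388618-118475234), gave 432, 491 and 251 in controls and 386, 352 and 313 in double knockouts. The groups overlapped, control 3 being below every double knockout, and the log2 fold change was -0.11 ± 0.21 with adjusted p = 0.836 by limma. Its 95% interval ran from -0.57 to 0.35. The part of the gene that the Gcn2 allele removes is not given in the sources used here, and a count over the whole gene does not check it, so loss of Gcn2 rests on the label. Near the targeted genes, within 10 Mb, 0 of 74 tested neighbours of Ptpmt1 and 2 of 150 neighbours of Eif2ak4 were called (Chac1 and Fibin), against 0.743% of all genes tested.

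None of 17 genes of the eIF2 kinases and their partners was called by limma, edgeR or DESeq2 (4 had an unadjusted limma p under 0.05), with a median log2 fold change of -0.03, close to that of all genes tested. The other kinases gave -0.14 ± 0.10 for Eif2ak1, -0.17 ± 0.15 for Eif2ak2 and 0.17 ± 0.11 for Eif2ak3. Eif2s1, the alpha subunit of eIF2 itself, gave -0.34 ± 0.15 with adjusted p = 0.426 by limma. Eif2s2, the beta subunit, gave 0.37 ± 0.15 with adjusted p = 0.391, and its groups overlapped.

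Most regulators of the ISR rose. Of 16 tested members of that list, 12 were called higher and 0 lower, against a background of 0.701% called higher, and the median log2 fold change was 1.71. Atf4, the central transcription factor (chr15:80255184-80257541), gave 1305, 1286 and 1239 in controls and 3233, 2563 and 3065 in double knockouts. The groups were well separated, and the log2 fold change was 1.20 ± 0.11 with limma's adjusted p = 6.48e-05. Atf5, a related factor that acts in mitochondrial stress responses, went from 179, 179.8 and 128 to 879, 1056 and 1123. It rose by 2.65 ± 0.15 on the log2 scale. Exons of Atf5 overlap those of Il4i1 and Nup62 on the opposite strand. Ddit3 (CHOP), a factor linked to apoptosis in prolonged stress, went from 93.7, 107 and 65.1 to 372, 257 and 329.8. Its log2 fold change was 1.85 ± 0.20 with adjusted p = 0.000361, and its groups did not overlap.

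Genes that feed back on the response or on growth signalling were also called higher. Trib3, a pseudokinase that restrains Atf4 and Akt, was at 28.0, 31.4 and 16.0 in controls and at 721, 544 and 695 in double knockouts. Every double knockout was far above every control, and the log2 fold change was 4.69 ± 0.23 with limma's adjusted p = 8.24e-07. Chac1, which degrades glutathione, was near the bottom of the measured range in controls. It had 2.43, 5.23 and 5.34 there against 222, 146 and 209 in double knockouts, a log2 fold change of 5.21 ± 0.30. Sesn2, an inhibitor of mTORC1 signalling, went from 142, 163 and 135 to 635, 585 and 556, a rise of 2.01 ± 0.12. Ppp1r15a, the stress-induced subunit of the phosphatase that removes phosphate from eIF2, rose by 0.87 ± 0.13 with adjusted p = 0.00554, and its call was lost without double knockout 1 or 3 (0.0532 to 0.072).

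Secreted members of the list differed in level. Stc2, a glycoprotein hormone, rose by 2.02 ± 0.15, from 113, 134 and 119.6 to 560.5, 406 and 540.3. Gdf15, a circulating signal of mitochondrial stress, was at 8.52, 4.18 and 5.34 in controls and at 39.4, 38.8 and 44.0 in double knockouts, a log2 fold change of 2.62 ± 0.32 with adjusted p = 0.0012. Thus Gdf15 rose from a low level. Fgf21, another hormone of the same response, was not tested, because its highest value in any library was 0.668. Nupr1, a stress-induced chromatin protein, had 3 reads in all controls together and 62 in the double knockouts. The ratio of its depth-scaled reads was 16.5, with a 95% interval for counting error of 5.38 to 82.0. The Nupr1 call (limma's adjusted p = 0.0458) was lost without control 3 or any double knockout, where adjusted p ranged from 0.0762 to 0.331.

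The remaining members called higher were Cebpb, a transcription factor that pairs with Atf4, at 1.56 ± 0.28, and Vldlr, the very low density lipoprotein receptor, at 0.78 ± 0.11. The call of Cebpb was lost without control 1 or double knockout 2 or 3, where limma's adjusted p ranged from 0.0756 to 0.171. Atf3, a repressor that follows Atf4, had 286, 229 and 176 in controls and 409, 272 and 389 in double knockouts. Its groups overlapped, and it gave 0.63 ± 0.19 with adjusted p = 0.285 by limma. The others that did not pass by limma were Ddit4 at 0.65, Cebpg at 0.63 and Eif4ebp1 at 0.51, which DESeq2 called higher, and the 3 double knockouts lay above the 3 controls for 15 of the 16 members. Across all genes tested, the double knockouts lay wholly above the controls for 8.98%.

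**Figure D2:**
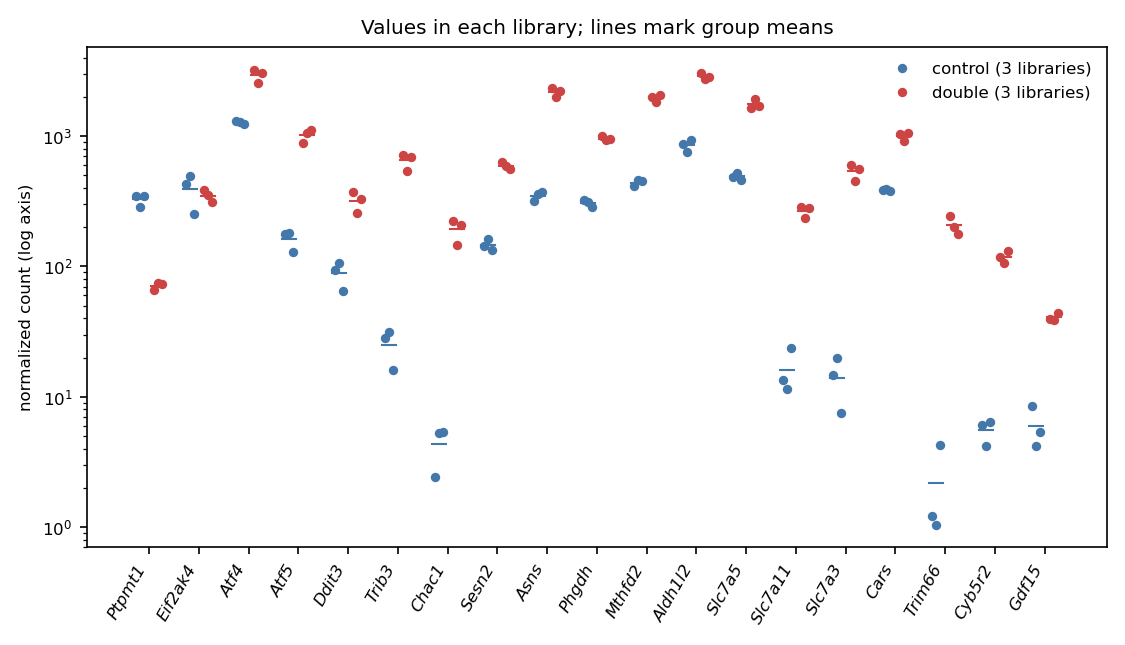
Normalized counts (log axis) of 19 genes in each of 3 control (blue) and 3 double knockout (red) libraries, with short lines at the group means. The red points lie above the blue ones for the ISR, amino acid and transporter genes, below them for Ptpmt1, and among them for Eif2ak4.

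Of 14 tested enzymes that make amino acids and one-carbon units, 11 were called higher and 0 lower, against a background of 0.701% higher. Their median log2 fold change was 1.47. Asns, asparagine synthetase (chr6:7675169-7693254), had the smallest p of all genes tested. It went from 315, 358 and 374 in controls to 2323, 1989.9 and 2229 in double knockouts. The double knockouts lay in a narrow band well above the controls, and the log2 fold change was 2.64 ± 0.11 with limma's adjusted p = 3.28e-07. Cth, which makes cysteine by transsulfuration, went from 17.0, 14.6 and 20.3 to 204, 97.0 and 153, a rise of 3.0 ± 0.27. Its double knockouts spread more widely than those of Asns.

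The serine and folate branches moved along. Phgdh, the first enzyme of serine synthesis, went from 325, 314 and 287 to 1001, 929 and 946, a rise of 1.63 ± 0.10. Psph and Psat1, which complete that route, rose by 1.09 ± 0.14 and 0.90 ± 0.11. In the mitochondrial folate pathway, Mthfd2 went from 411, 457 and 454 to 2015, 1827 and 2061. Mthfd2 thus rose by 2.16 ± 0.10, with adjusted p = 6.68e-07 by limma and no overlap of the groups. Aldh1l2, a mitochondrial formyltetrahydrofolate dehydrogenase, rose by 1.76 ± 0.10, and Shmt2, the mitochondrial serine hydroxymethyltransferase, by 1.37 ± 0.14. Shmt1, its cytosolic counterpart, gave 0.05 with adjusted p = 0.85.

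Proline and alanine synthesis were represented by Pycr1 at 1.56 ± 0.16, Aldh18a1 at 1.14 ± 0.10 and Gpt2 at 1.59 ± 0.14. All 3 were called higher. Besides Shmt1, the enzymes not called were Mthfd1l at 0.38 and Got1 at 0.34.

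Of 11 amino acid transporters, 7 were called higher and 0 lower, against a background of 0.701% higher. Their median log2 fold change was 1.24. Slc7a3, a carrier of cationic amino acids, was at 14.6, 19.9 and 7.47 in controls and at 605, 453 and 555 in double knockouts. Slc7a3 rose by 5.25 ± 0.28 with limma's adjusted p = 1.8e-06, with no overlap of the groups. Slc7a11 went from 13.4, 11.5 and 23.5 to 284, 235 and 281, a rise of 4.02 ± 0.25. Slc7a5, the light chain of the leucine carrier, rose by 1.84 ± 0.10, and Slc3a2, the heavy chain it shares with Slc7a11, by 1.24 ± 0.12.

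Slc1a4, a carrier of small neutral amino acids, and Slc7a1, the widely expressed cationic carrier, were also called higher, at 1.61 ± 0.14 and 0.92 ± 0.11. Slc6a9, the glycine carrier, had 95, 186 and 64.1 in controls and 432, 386 and 399 in double knockouts. It gave 1.95 ± 0.29 with adjusted p = 0.00541. The Slc6a9 call was lost without control 1 or double knockout 3, where limma's adjusted p was 0.0537 to 0.057. Slc1a5, Slc38a1, Slc38a2 and Slc7a6 were not called and ranged from 0.10 to 0.37.

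Aminoacyl-tRNA synthetases were listed by compartment. Of the 20 cytosolic ones, which charge tRNAs with amino acids, 9 were called higher and 0 lower, against a background of 0.701% higher. Their median was 0.48. Of the 17 mitochondrial ones 0 were called by limma, edgeR or DESeq2, with a median of -0.04; the difference between the lists was not tested. Cars, for cysteine, went from 388, 390.0 and 378 to 1038, 913 and 1062, a rise of 1.38 ± 0.10. Sars, for serine, rose by 1.02 ± 0.10, from 1060.4, 1112 and 1175 to 2339, 2067 and 2388. The controls of both genes lay close together and far below the double knockouts.

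The other synthetases called higher were those for methionine, alanine, isoleucine, tyrosine, leucine, asparagine and glycine (Mars, Aars, Iars, Yars, Lars, Nars and Gars), between 0.74 and 0.91. Exons of Mars overlap those of Ddit3 on the opposite strand. How reads of the shared stretch were assigned is unknown, since the strand setting of the counting is not given. Without double knockout 3 the calls of Lars, Gars and Nars were lost, and those of Gars and Nars also without control 1. In those fits, and for Nars also without double knockout 1, adjusted p ranged from 0.0565 to 0.116. Farsa, Farsb, Dars, Hars, Kars, Qars and Rars gave values between -0.19 and 0.11. Wars, Eprs, Vars and Tars, also not called by limma, lay between 0.32 and 0.49, and DESeq2 called Tars higher (adjusted p = 0.017). Together, 39 of the 61 tested members of the 4 lists were called higher, against 0.701% of all genes tested. These lists were chosen with earlier results of these data known. When each library was left out in turn, the called-higher members numbered 9 to 14 among ISR regulators, 11 to 13 among enzymes, 6 to 8 among transporters and 6 to 11 among cytosolic synthetases. Exons of Aldh1l2, Shmt2, Psph, Slc6a9, Aars, Yars, Cars, Cebpb, Ppp1r15a, Bcat1, Pck2, B4galnt2 and Cdkn1a also overlap those of another gene. Their reads in the shared stretches are uncertain in the same way.

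**Figure D3:**
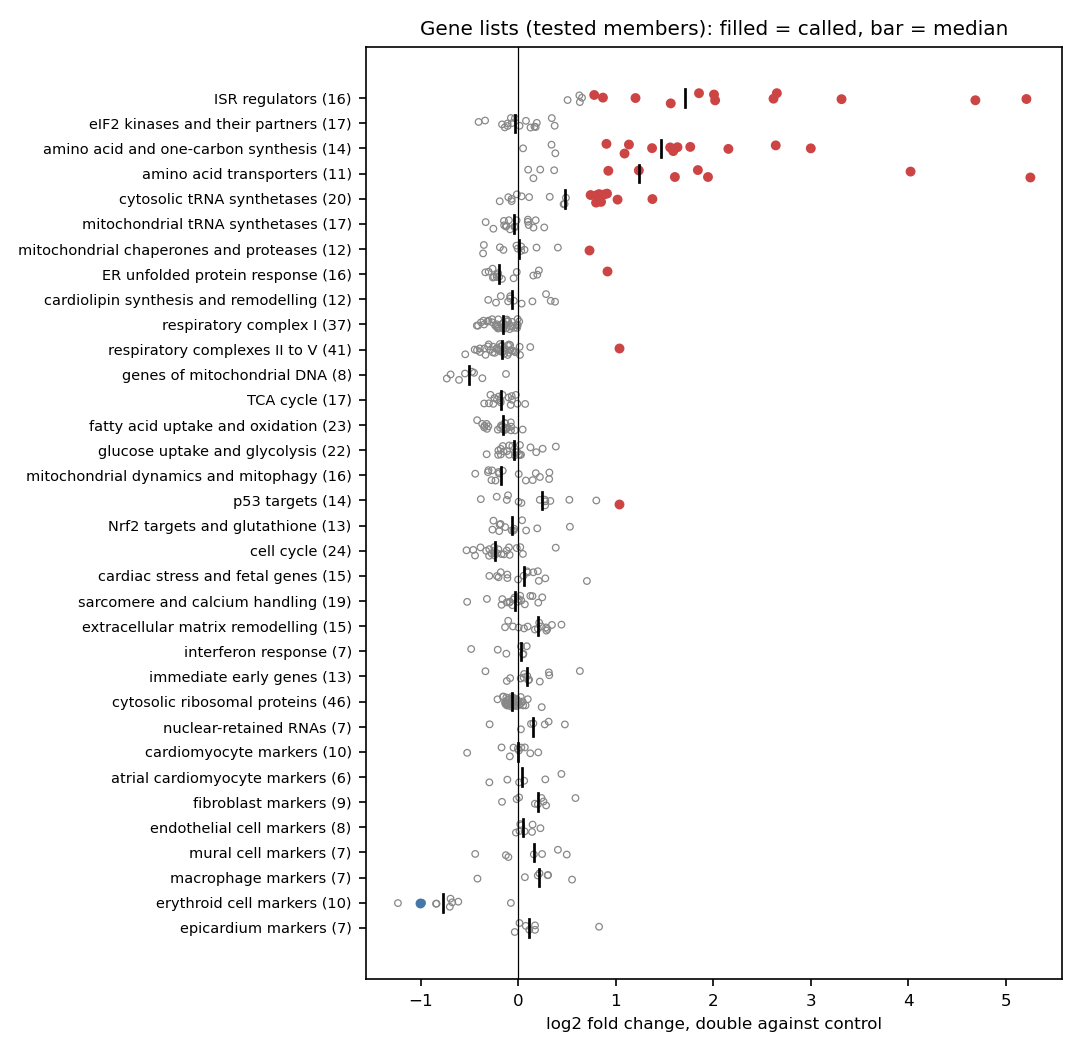
Log2 fold change of every tested member of the gene lists and marker lists with at least 5 tested members, with filled points for called genes and a bar at the list median. The top rows of ISR, amino acid, transporter and cytosolic synthetase genes reach to the right, with medians of 1.71, 1.47, 1.24 and 0.48, and the erythroid markers lie to the left with a median of -0.77.

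A further 60 rises lay outside those 4 lists, and 56 were in none of the lists examined. Trim66, a chromatin-binding tripartite motif protein (chr7:109449006-109508134), had the largest log2 fold change of all. It had 1.22, 1.05 and 4.27 in controls, from 6 reads in all, and 245, 199 and 177 in double knockouts, from 727 reads. The log2 fold change was 6.16 ± 0.36 with limma's adjusted p = 2.44e-06, and the ratio of depth-scaled reads was 96.5, with a 95% counting interval of 44.1 to 264. Cyb5r2, a cytochrome b5 reductase, went from 6.09, 4.18 and 6.41 to 118, 106 and 132, a rise of 4.20 ± 0.25. Its exons overlap those of Ppfibp2 on the opposite strand.

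Several other genes rose from almost no reads, which limits the size that can be given. For Cntnap3, Cdsn, B4galnt2 and Vmn2r3, and for Trim66, Cyb5r2, Chac1, Gdf15 and Nupr1 above, every control was under 10. They entered the test through the double knockouts alone, and each was also called with no filter on low values. Cntnap3, of the contactin-associated protein family, had 2 reads in all controls and 202 in the double knockouts, a ratio of depth-scaled reads of 80.5 with a counting interval of 22 to 669. Cdsn, corneodesmosin, an adhesion protein of the skin, had 16 and 355 reads, a ratio of 17.7 with an interval of 10.7 to 31.3. B4galnt2, a glycosyltransferase, had 0 reads in the controls and 118 in the double knockouts. Set against 3 reads over the control group, the limit that a count of 0 allows, its ratio of depth-scaled reads was 31.3. With the counting error of both groups, by the exact interval used above, B4galnt2 was at least 25.1-fold higher. For the vomeronasal receptor gene Vmn2r3, with 0 and 66 reads, the same floor gave a ratio of 17.5 and the exact interval put it at least 13.9-fold higher. B4galnt2 and Vmn2r3 were chosen after their values were seen, as were Cebpb, Ppp1r15a, Vldlr, Slc3a2, Shmt2, Psph, Pycr1, Mars and the uncalled members named without an adjusted p.

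Better covered genes outside the 4 lists were called higher too. Bcat1, the cytosolic branched-chain aminotransferase, went from 222, 209 and 239 to 870.4, 750.4 and 791, a rise of 1.84 ± 0.11 with adjusted p = 2.44e-06 by limma. Fam129a (Niban), a regulator of translation under stress, went from 226, 254 and 296 to 1037, 931 and 1014, a rise of 1.94 ± 0.12. Pck2, the mitochondrial phosphoenolpyruvate carboxykinase, rose by 1.45 ± 0.11, and Xpot, which exports tRNA from the nucleus, by 0.79 ± 0.09. None of these 4 genes had overlapping groups.

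The mitochondrial lists gave few calls, although enzymes named above such as Mthfd2, Aldh1l2, Shmt2 and Pck2 are also mitochondrial. Of 12 mitochondrial chaperones and proteases, Lonp1, the ATP-dependent protease of the matrix, was the one called by limma. It had 1308, 1402 and 1155 in controls and 2105, 2156 and 2104 in double knockouts, a log2 fold change of 0.72 ± 0.10 with limma's adjusted p = 0.00306. Its groups did not overlap, and the list median was 0.01. Hspa9, the mitochondrial Hsp70, gave 0.41 ± 0.11 with adjusted p = 0.195 by limma although its groups did not overlap either. DESeq2 also called Hspa9 higher, with adjusted p = 0.0364, and edgeR did not (0.213). Hspd1, the mitochondrial Hsp60, gave -0.15 ± 0.15.

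Of 12 genes for cardiolipin synthesis and remodelling other than Ptpmt1, 0 were called by limma, edgeR or DESeq2, 1 had an unadjusted limma p under 0.05, and the median was -0.06. Crls1, cardiolipin synthase, gave -0.31 ± 0.16 with adjusted p = 0.471, and Pgs1, which makes the substrate of Ptpmt1, gave 0.33 ± 0.15 with adjusted p = 0.428. Their groups overlapped.

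Respiratory chain genes of the nucleus had negative values for the most part without passing the test. Of 37 complex I genes, 36 had a negative log2 fold change, the median was -0.16 and 0 were called by any of the 3 tools, although 11 were lower with an unadjusted limma p under 0.05. The double knockouts lay wholly below the controls for 16 of them, against 9.05% of all genes tested. Of 41 genes of complexes II to V, 18 lay wholly below, the median was -0.17, and limma called 1 gene, Cox6a2, in the other direction. DESeq2 called Cox6a2 and 1 more, lower, which was Sdhd, an anchor subunit of complex II, at -0.45 with adjusted p = 0.0369 (limma 0.169). Cox6a2, the heart and muscle isoform of a cytochrome oxidase subunit, went from 523, 482 and 353 to 870.4, 855 and 1043, a rise of 1.04 ± 0.15. That call was lost without double knockout 3 (limma's adjusted p = 0.0593), and exons of Cox6a2 overlap those of Itgad.

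Of 8 tested genes of mitochondrial DNA, all had negative values, with a median of -0.51. Limma and edgeR called 0 of them, and 4 had an unadjusted limma p under 0.05. DESeq2 called 3 lower, mt-Cytb, mt-Nd5 and mt-Nd4, with adjusted p of 0.00149, 0.0268 and 0.0374. The lowest was mt-Cytb, of complex III, with 64380.1, 50159 and 95229.6 in controls and 41279.6, 37382 and 43426 in double knockouts. The groups of mt-Cytb did not overlap, and it gave -0.73 ± 0.20 with adjusted p = 0.208 by limma. Control 3 stood apart here: mitochondrial DNA took 2.41%, 1.79% and 3.42% of the signal in controls 1 to 3 and 1.79%, 1.54% and 1.79% in double knockouts 1 to 3. The difference of these shares gave p = 0.2 in an exact two-sided permutation test, which with 3 against 3 cannot go below 0.1. With control 2 left out, 5 genes of mitochondrial DNA, 3 of complex I, 4 of complexes II to V, 3 of fatty acid oxidation and 4 of the cell cycle were called lower by limma.

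Limma and edgeR called 0 genes in the other metabolic and cardiac programmes: 17 genes of the tricarboxylic acid cycle (median -0.18), 23 of fatty acid oxidation (-0.15), 22 of glycolysis (-0.05), 16 of mitochondrial dynamics (-0.18) and 19 of the sarcomere and calcium handling (-0.04). DESeq2 called 1 gene of these, Hk2 of glycolysis, a hexokinase, higher at 0.39 by limma's estimate with adjusted p = 0.0449 (limma 0.162). Unadjusted limma p was under 0.05 for 3 lower genes of the cycle, 7 of oxidation, 1 of glycolysis, 5 of dynamics and 2 of the sarcomere list, and for 0, 0, 1, 2 and 1 higher. The stress genes of heart muscle, 15 in all, had 0 calls by the 3 tools and a median of 0.05. Nppa, the atrial natriuretic peptide, had 17045, 16433 and 17042 in controls and 19611, 19696 and 22023 in double knockouts. Its double knockouts lay above the controls by a small margin, with a log2 fold change of 0.28 ± 0.10 and adjusted p = 0.374 by limma. Nppb, the B-type peptide, gave 0.09 ± 0.20, and its groups overlapped. Myh7 and Myh6, the beta and alpha myosin heavy chains, gave 0.05 ± 0.15 and 0.01 ± 0.12, with 95% intervals from -0.27 to 0.38 and from -0.25 to 0.27.

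The ER unfolded protein response, which shares Perk and Ddit3 with the ISR, had 1 called gene of 16 and a median of -0.20. That gene was Herpud1, which serves ER-associated degradation, with 547, 411 and 419.7 in controls and 890.5, 773 and 919.5 in double knockouts. Herpud1 rose by 0.91 ± 0.13 with adjusted p = 0.00414, a call lost without double knockout 3 (adjusted p = 0.0631). The ER chaperone Hspa5 (BiP) gave -0.26 ± 0.15. Of 14 p53 targets, Cdkn1a, the cell cycle inhibitor p21, was called at 1.03 ± 0.16, and was lost without double knockout 3 (adjusted p = 0.072). Bbc3, a promoter of apoptosis, gave 0.80 with adjusted p = 0.17.

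Among 24 cell cycle genes limma called 0, although 11 were lower with an unadjusted p under 0.05, and the median was -0.24. Over all 14128 genes tested, 1627 had an unadjusted limma p under 0.05 in either direction. The double knockouts lay wholly below the controls for 17 of the 24, against 9.05% of all genes tested. Ccna2, cyclin A2, went from 2785, 2714 and 3309 to 2119, 2079 and 2174, with -0.46 ± 0.10 and adjusted p = 0.0828 by limma. By edgeR's quasi-likelihood test on recovered reads its adjusted p was 0.042, and by DESeq2 0.0068, so both called it lower. DESeq2 also called Ccnb1, cyclin B1, lower, at -0.44 by limma's estimate with adjusted p = 0.0462 (limma 0.18, edgeR 0.132). Of 13 Nrf2 targets and glutathione genes, 15 of the extracellular matrix, 7 of the interferon response, 13 immediate early genes, 46 cytosolic ribosomal proteins and 7 nuclear-retained RNAs, 0 were called by limma, edgeR or DESeq2.

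Apart from Ptpmt1, the falls named here were of less than 1 on the log2 scale. Gtsf1, a germline factor of transposon silencing, fell by 0.95 ± 0.17, from 164, 132 and 188 to 73.5, 89.8 and 84.9, with limma's adjusted p = 0.0259. Igfbpl1 fell by 0.65 ± 0.12, Tmem50b by 0.53 ± 0.11 and Nudt4, a hydrolase of inositol pyrophosphates, by 0.45 ± 0.09. None of these 4 had overlapping groups. Each of the 4 calls was lost without control 1 and without each of the double knockouts, where limma's adjusted p ranged from 0.0733 to 0.32 over the genes. Of the 6 falls, Ptpmt1 was the one that kept its call in every fit that left out a library.

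Red cell RNA also had lower values. All 10 erythroid markers had negative log2 fold changes, with a median of -0.77, and 8 had an unadjusted limma p under 0.05. Limma called 1 of the 10 lower, edgeR 1 and DESeq2 2. The limma count ranged from 0 to 9 when each library was left out in turn. These markers, led by the embryonic globins Hbb-y and Hba-x, made up 0.28%, 0.397% and 0.14% of the signal in controls 1 to 3 and 0.165%, 0.125% and 0.146% in double knockouts 1 to 3. Controls 1 and 2 were above every double knockout and control 3 was within their range (exact two-sided permutation test, p = 0.3). Hbb-y had 20659.8, 29784 and 11472 in controls and 12504, 9445 and 10466 in double knockouts. Its groups overlapped, and it gave -0.84 ± 0.26 with adjusted p = 0.298. Without control 3, limma called 9 of the 10 erythroid markers lower. The part of blood content in the falls was not tested.

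Markers of the labelled cell type were abundant in all 6 libraries. The 10 cardiomyocyte markers took 4.84% to 6.32% of the signal in controls and 6.05% to 6.87% in double knockouts, with 0 called by the 3 tools and a median of 0.00. Fibroblast markers, 9 tested, took 0.119% to 0.147% in controls and 0.139% to 0.169% in double knockouts, with a median of 0.20. Endothelial (8), mural (7), macrophage (7), epicardial (7) and atrial (6) markers had 0 calls by limma and edgeR, with medians between 0.04 and 0.22. DESeq2 called 1 of them, the mural marker Acta2, a smooth muscle actin, lower, with adjusted p = 0.00766 against 0.137 by limma and a log2 fold change of -0.44. Of the lymphocyte and Schwann cell markers 1 each was tested, and of the adipocyte markers 0. Nuclear-retained RNAs took 1.22%, 1.02% and 0.81% of the signal in controls and 1.43%, 1.16% and 1.08% in double knockouts (exact two-sided permutation test, p = 0.3).

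**Figure D4:**
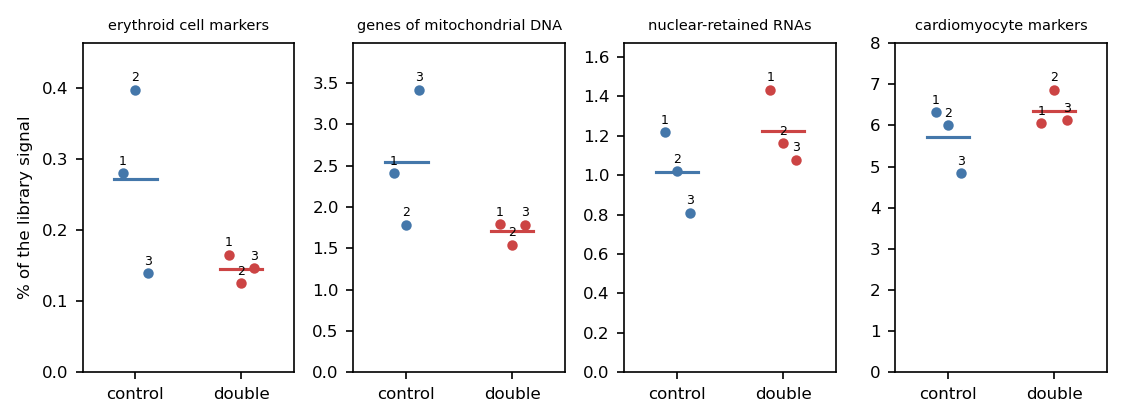
Share of each library's summed normalized signal (vertical axes, percent, starting at 0) taken by erythroid markers, genes of mitochondrial DNA, nuclear-retained RNAs and cardiomyocyte markers. Points are libraries numbered by replicate and lines are group means. Control 3 has the lowest erythroid share of the controls (0.14%) and the highest mitochondrial share (3.42%).

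Other tables of the series hold Ptpmt1 knockouts with intact Gcn2, in lines named FST and PHT after their sample titles. FST compares 3 libraries of a cardiomyocyte-specific Ptpmt1 knockout with 3 controls, and PHT compares 3 with 2. The tables were normalized separately, so no test was run between them, and values are set side by side. Ptpmt1 fell by 2.18 in the PTGC double knockout, by 2.17 ± 0.17 in the FST knockout and by 2.44 ± 0.22 in the PHT knockout, all on the log2 scale. In FST 70 genes were called (0.504%), 45 higher (0.324%) and 25 lower (0.18%). In PHT 45 were called (0.301%), 42 higher (0.281%) and 3 lower (0.02%). Of the FST rises 32 were also called higher in the PTGC double knockout, which is 71.1% of the FST list and 32.3% of the PTGC list. Of the PHT rises 37 were, or 88.1% of the PHT list and 37.4% of the PTGC list.

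Among PTGC rises, 86 of the 87 that were tested in FST and 92 of the 96 tested in PHT had a positive value there. Their medians were 1.18 in PTGC against 0.75 in FST, and 1.24 against 0.72 in PHT. These genes were chosen by their call in PTGC, which favours larger values there, so the medians are not on equal terms. Higher in all 3 comparisons were 27 genes, among them Atf4, Atf5, Trib3, Chac1, Asns, Phgdh, Mthfd2, Slc7a11, Slc7a3, Cars, Bcat1, Trim66 and Cyb5r2. Across all genes tested in both tables the fold changes had a Pearson's r of 0.148 and a Spearman's rho of -0.16 over 13775 genes for FST, and 0.285 and -0.04 over 14090 genes for PHT. These values are over genes of few libraries, which are not independent replicates.

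Among single genes, Atf4 rose by 1.20 ± 0.11 in the PTGC double knockout, 0.97 ± 0.13 in the FST knockout and 0.87 ± 0.12 in the PHT knockout. For Asns the values were 2.64 ± 0.11, 2.36 ± 0.15 and 2.14 ± 0.17. Trib3 gave 4.69 ± 0.23, 3.96 ± 0.34 and 3.57 ± 0.43, and Mthfd2 gave 2.16 ± 0.10, 1.88 ± 0.17 and 1.69 ± 0.16. Psat1 was higher in FST, at 1.06 ± 0.15, than the 0.90 of PTGC, and Chac1 in PHT, at 6.0 ± 0.55, than the 5.21 of PTGC. Since the PTGC line has its own controls and the tables differ in libraries and spread, these differences between lines were not tested.

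By list, the medians in the PTGC double knockout, the FST knockout and the PHT knockout were 1.71, 0.83 and 0.86 for ISR regulators. They were 1.47, 1.01 and 0.82 for amino acid enzymes, 1.24, 0.75 and 0.73 for transporters, and 0.48, 0.52 and 0.35 for cytosolic synthetases. Each FST or PHT median is over the members tested in PTGC that were also tested there. Gdf15 and Nupr1, at 2.62 and 3.32 in PTGC, were not tested in FST and are missing from its median of ISR regulators. The genes of mitochondrial DNA had opposite signs, -0.51 against 0.54 and 0.32. The erythroid markers were negative throughout, at -0.77, -0.63 and -1.14.

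Of the 99 rises, 57 were called in neither knockout. Of these, 45 were tested in both and 40 of the 45 had positive values in both, while 12 were not tested in 1 or both. Sesn2 was one: it gave 2.01 ± 0.12 in PTGC, 1.15 ± 0.25 in FST (adjusted p = 0.0567) and 0.72 ± 0.15 in PHT (adjusted p = 0.0867). Lonp1 was another, at 0.72 ± 0.10 in PTGC against 0.01 ± 0.17 in FST and 0.05 ± 0.10 in PHT. Conversely, 1 gene called higher in both knockouts was not called in PTGC. This was Eif2s2, at 0.37 in PTGC, 0.69 ± 0.08 in FST and 0.46 ± 0.09 in PHT.

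Double mutants of the other lines give a further set of values, measured against the same FST or PHT controls as the knockouts above. In the FST double (3 libraries), Ptpmt1 loss is combined with a mutation of Eif2a, as the labels call the alpha subunit of eIF2, and in the PHT double (2 libraries) with loss of Hri. Of the 99 PTGC rises 0 were called higher in either. The FST double had 20 calls (0.144%), 10 each way (0.072%), and the PHT double 4 (0.0267%), 2 each way (0.0134%). The medians of the PTGC rises tested there were 0.06 in the FST double, with 57 of 87 positive, and -0.01 in the PHT double, with 44 of 96 positive. Atf4 gave 0.23 ± 0.13 and 0.00 ± 0.13 there, and Asns 0.29 ± 0.15 and -0.22 ± 0.19, against 1.20 and 2.64 in the PTGC double knockout. Ptpmt1 had fallen by 1.83 ± 0.17 and 1.76 ± 0.24 in those doubles.

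**Figure D5:**
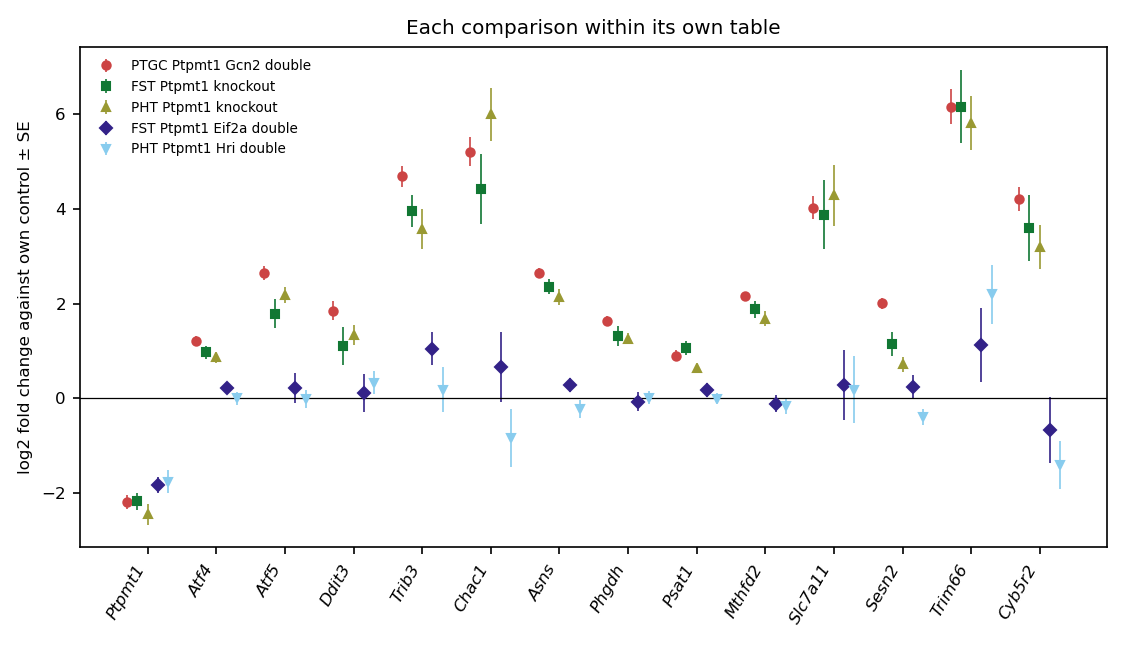
Log2 fold change ± SE of 14 genes in 5 comparisons, each against the controls of its own table (FST knockout and double share controls, as do PHT knockout and double). For the genes other than Ptpmt1, the PTGC double knockout (red circles) lies above 0, as do the FST and PHT Ptpmt1 knockouts. The distance between them differs by gene: Asns is at 2.64, 2.36 and 2.14, and Sesn2 at 2.01, 1.15 and 0.72. The Eif2a and Hri doubles lie near 0 for most ISR genes and share the low value of Ptpmt1.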

How the data were processed

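RNA-seq values of 6 PTGC libraries were analysed, with FST and PHT libraries for values set beside them. The deposited values are a normalized signal per gene; STAR 2.5.3a, DESeq2 1.12.4 and mm10 are named without roles in the submitters' processing notes. For the counter, annotation and strand the sources used here give nothing. Dividing each PTGC column of these deposited signal values by its step gave whole reads for 100% of values (tolerance 0.1), and these gave the depths and fed the count tests. Genes are given by symbol, and 26 symbols had become dates. Positions are from GENCODE M21. Columns of values without a sample numbered 0.

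Genes reaching 10 in at least 3 libraries were tested with limma 3.58.1 (R 4.3.3; intensity trend) on log2(value + 1), two-sided, with Benjamini-Hochberg adjustment over all genes tested. Such fold changes understate changes of low genes. FST and PHT were fitted with all their groups. Adjusted p is limma's unless named. edgeR 4.0.16 and DESeq2 1.42.0 on recovered reads, other pseudocounts, filters, scalings and priors, a sex term and leaving out each library were alternatives. The limma procedure was tested on simulated data. Intervals of read ratios (95%, exact) cover counting error only.

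Members and lists were chosen with earlier results of these data known. Named genes were the targets and eIF2 kinases, a panel of ISR and cardiac genes, the 15 largest changes each way where the higher group averaged at least 50, the 8 smallest p each way (clone names left out of both), up to 4 members of each list by p, and genes shared with both knockouts. A called gene that this rule also names is not reported here.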

Additional observations from a re-analysis of the deposited data

How the results depend on the processing

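No paired analysis was possible because the labels give the libraries codes of their own and no replicate numbers. The 105 calls (99 higher, 6 lower) became 96 with TMM scaling, 107 with median centring and 104 by edgeR, which made 101 of the same calls. DESeq2 called 179, with 43 lower, so that 76.0% rather than 94.3% of calls were higher; it included all 105. Scaling moved the median of all genes to -0.0096 (TMM) and -0.0019 (centring). With no intensity trend the total dropped to 80, made up of 77 rises and 3 falls, and 68 of these calls were among the 105. A sex term also left 80, made up of 79 rises and 1 fall, all among the 105. Among rises named above, Nupr1, Slc6a9, Herpud1, Cox6a2, Cdkn1a, Lars, Gars, Nars, Cebpb and Vldlr lost their call with no intensity trend. Nupr1 lost its call with the sex term too. Leaving out 1 library gave 57 to 536 calls, 55 to 285 higher and 1 to 251 lower. The 536 came without control 2 (285 higher, 251 lower). Without control 3 there were 28 lower, without control 1 there was 1, and without double knockouts 1, 2 and 3 there were 1, 2 and 2. Without double knockout 1 the calls were 67, and without double knockout 3 they were 57, with 55 higher; the cause was not tested. In all 6 of these fits, 54 of the 99 rises and 1 of the 6 falls kept their call. This held for 32 of the 39 rises in the ISR, amino acid, transporter and cytosolic synthetase lists and for 22 of the 60 others. Of 49 called named genes, 36 kept their call under every setting run, and the others were lost under at least 1. With the compared groups alone in the fit, the FST knockout had 27 calls instead of 70 and the PHT double 13 instead of 4. With adjusted p under 0.1 the shared rises were 41 (FST) and 40 (PHT). Depth limits the genes with 0 to 3 control reads, whose ratios are bounds or have wide intervals.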
